A study of Drosophila melanogaster with 48 samples.

Results

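Messenger RNAs carried by 4 or more ribosomes (the 4+ pool) were compared with those found with a lone ribosome (the 80S pool) in fly testes 72 h after a pulse of bam. The comparison was taken by its pool and time labels: 2 libraries of the 4+ pool and 2 of the 80S pool, 4 of the 48 libraries of the series. Every animal, in both pools, had the genotype bam-/-;hsBam: it lacked its own bam, which germ cells need to leave the spermatogonial divisions and become spermatocytes, and carried a heat-shock copy of it. Pupae were raised at 22 °C, kept at 37 °C for 30 min and returned to 25 °C, so both pools share the mutation, the transgene and the shock, and the series gives no unshocked or wild-type polysome gradient here. Extract was spun through a sucrose gradient, and gradient fractions were combined into pools by their absorbance at 260 nm. RNA 3′ ends were then counted by QuantSeq, which primes on the poly(A) tail. The level of a gene is the sum of its 3′ end counts, and site use is the share of the 2 main 3′ ends listed for a stop codon.

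In a polysome gradient an mRNA moves faster the more ribosomes it carries. An mRNA in the 80S peak has 1 ribosome engaged, or sediments with the monosome for another reason, while the heavy end holds mRNAs in active, repeated rounds of translation. The space on a coding region limits how many ribosomes fit, so short open reading frames rarely reach the heavy end. In fly spermatogenesis many mRNAs for sperm parts are made in spermatocytes and stored without translation until the spermatids need them. Cleavage and polyadenylation at a near (proximal) or far (distal) 3′ end sets the length of the 3′ UTR and with it the binding sites for regulators of translation. The labels name no control that releases ribosomes. Whether an mRNA sat at the heavy end with ribosomes or in another large particle was not tested.

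The 4+ libraries held 5.26 and 6.84 M listed reads in 9144 and 9726 genes, and the 80S libraries 6.18 and 5.31 M in 9784 and 10006. Log2 levels correlated at r = 0.958 between the 4+ libraries, at 0.941 between the 80S libraries and at 0.785 to 0.825 across the pools, over 8631 genes listed in all 4. The 36 fraction libraries of the series, which share the estimate of spread, held 0.445 to 9.57 M reads. The lowest, replicate 2 of the 72 h 60S pool, listed 1870 genes and the next lowest library held 2.65 M reads. Where a count over all genes or over a gene list changes without that library in the estimate of spread, the second count is given too, as an alternative added after the data were seen. Levels are read counts scaled to library size (CPM) within a pool, so they give the make-up of a pool and not amounts of RNA, and fewer cells with an mRNA cannot be told apart from less mRNA per cell. Transcripts of the spermatocyte programme were present on both sides: all 11 tMAC and testis TAF genes, which switch on meiotic and spermatid genes, were listed in all 4 libraries, with summed levels of 1320 and 1230 CPM in 4+ and 1140 and 908 CPM in 80S. The bam gene itself stood at 66.6 and 37.1 CPM in 4+ and at 36.9 and 12.5 CPM in 80S, and its log2 difference of 1.20 did not pass the test (adjusted p = 0.422, limma); mutant and transgene reads cannot be told apart.

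More genes were depleted from the 4+ pool than were enriched in it. Of 9706 genes tested, 842 (8.68%) passed a Benjamini-Hochberg adjusted p of 0.05 in limma, 113 higher in 4+ (1.16%) and 729 lower (7.51%). The median log2 difference of all genes was −0.23. Without the shallow 60S library the counts were 738 higher (7.6%) and 1601 lower (16.5%). Counts of called genes in the lists below are to be read against these shares of all genes. Scaling by total reads moved the median to 0.05 and the counts to 443 higher and 667 lower, 39.9% of the calls being higher against 13.4%. Directions below are thus relative to the zero of the scaling used, which lies above the median of all genes. Both 4+ libraries lay above both 80S libraries in 2697 genes (27.8%) and below them in 4122 (42.5%). Of the genes lower in 4+, 104 were unlisted in both 4+ libraries. With 2 libraries a side, leaving out any 1 of them cut the calls to between 154 and 264. The labels call the replicates biological and say nothing of separate crosses or dissections, and the spread behind the p-values may be technical.

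**Figure D1:**
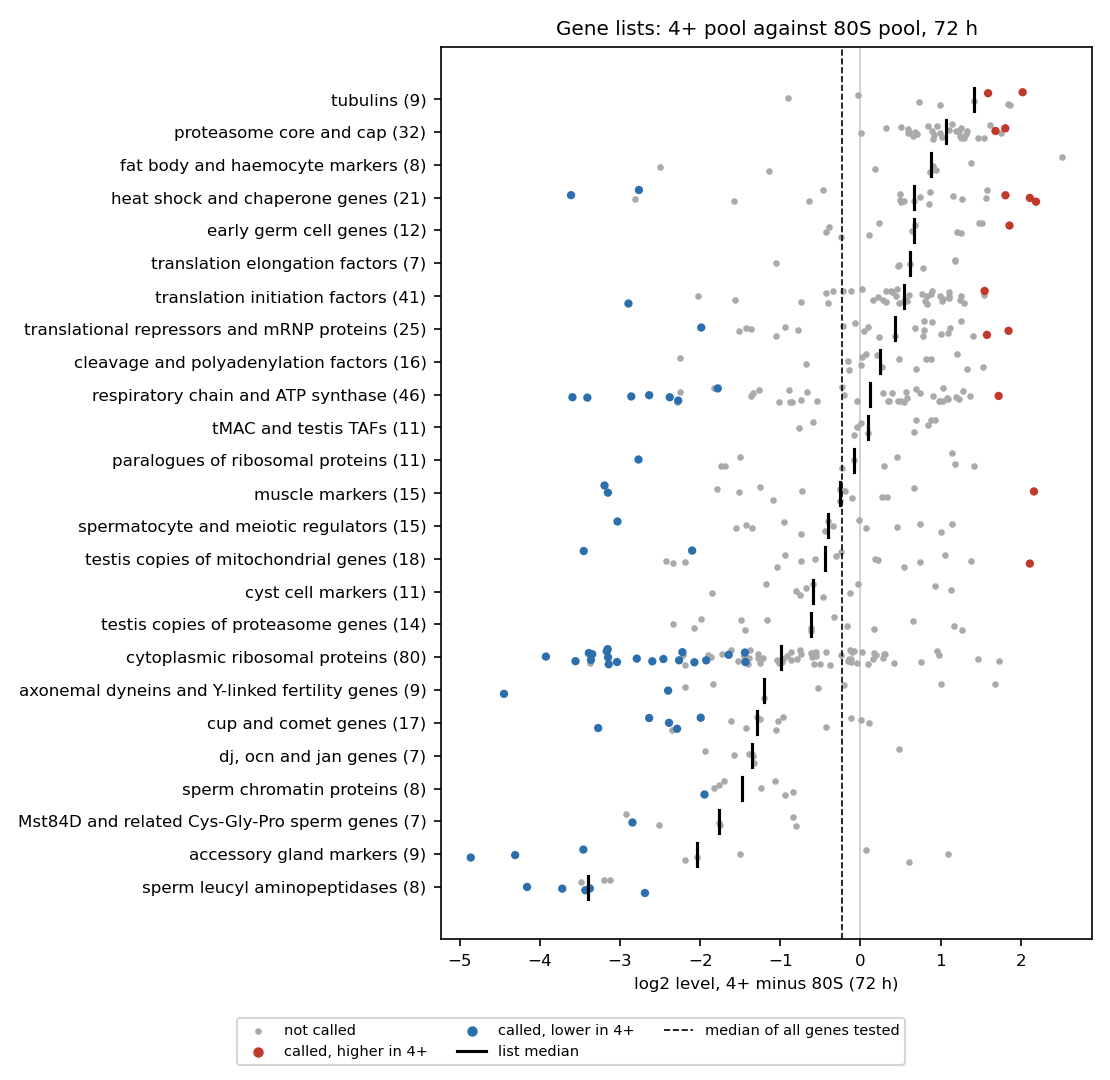
Log2 level in 4+ minus 80S at 72 h (x axis) for each tested member of 25 gene lists (number tested in brackets). Points are genes, grey where not called, red or blue where called higher or lower in 4+, bars are list medians, and the dashed line is the median of all genes (−0.23). Tubulins (median 1.42) and the proteasome (1.07) sit to the right, and the sperm leucyl aminopeptidases (−3.40) farthest to the left.

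The largest rises in the 4+ pool were led by bnb (bangles and beads). It stood at 166 and 122 CPM in 4+ and at 15.8 and 16.5 CPM in 80S, a log2 difference of 3.13 ± 0.59 (SE; adjusted p = 0.00132, limma). The gene blanks, whose double-stranded RNA-binding protein is needed for male fertility, had 585 and 670 CPM in 4+ against 102 and 109 CPM in 80S (log2 2.57, adjusted p = 0.00973). In both genes the 4+ libraries lay far above the 80S libraries. CG12493 was the most abundant of the uncharacterised genes that rose, at 2321 and 3147 CPM in 4+ and 371 and 418 CPM in 80S (log2 2.78, adjusted p = 0.0188).

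The other large rises included heph, the polypyrimidine tract-binding protein gene known for its part in separating sperm from one another. It reached 378 and 758 CPM in 4+ against 113 and 104 CPM in 80S (log2 2.30, adjusted p = 0.0123). Hsp27, a small heat shock protein gene, reached 3599 and 2929 CPM against 793 and 709 CPM (log2 2.11, adjusted p = 0.00401). Its relative Hsp23 rose by a log2 of 2.19. Tropomyosin gene Tm1 reached 1798 and 1453 CPM against 350 and 371 CPM (log2 2.17, adjusted p = 0.00432). CG4021, Sod3 (a superoxide dismutase), vir-1 (a gene induced by virus infection), Sms (spermine synthase) and ND-51L1 (a testis copy of a complex I subunit) completed the set of 12, with log2 differences from 2.11 to 2.32. The rule that picked the 12 required pools without overlap, so this is not a separate result. Over all genes tested, both 4+ libraries lay above both 80S libraries in 27.8%. All 12 passed without the shallow 60S library, while without any 1 of the 4 libraries compared only bnb still did (adjusted p up to 0.033). Tm1, Hsp27 and vir-1 missed the threshold without 4+ replicate 1 or 80S replicate 2, and heph passed only without 4+ replicate 1. The other 7 missed it whichever library was left out, with adjusted p up to 0.248 (Hsp23).

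The 12 largest falls included very short peptide genes and genes with long coding regions, and also S-Lap1 and Arc1, which are neither. Dso1, which encodes a short immune peptide of 126 coding nucleotides, stood at 116 and 113 CPM in 4+ against 2626 and 2491 CPM in 80S (log2 −4.48 ± 0.66, SE; adjusted p = 0.000125). Its relative Dso2 (log2 −4.14) and Mtk, the antifungal peptide metchnikowin (10.6 and 8.98 CPM against 190 and 210.3 CPM, log2 −4.36), fell with it. The seminal peptide genes Mst57Db (log2 −4.09) and Sfp96F (−4.30), and CG42852 (−4.42), are also under 160 nt of coding sequence.

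At the other end, CG32436 has 5211 coding nucleotides. It stood at 9.74 and 37.3 CPM in 4+ and at 929 and 977 CPM in 80S (log2 −5.58 ± 0.78, SE; adjusted p = 7.02e-05). Ppi1 (2994 nt), CG4836 (3672 nt) and CG12983 (3312 nt) had log2 differences of −4.69, −4.63 and −4.16. Among genes of middle length, S-Lap1, a sperm leucyl aminopeptidase, fell by 4.16 on the log2 scale. Arc1, a capsid-forming relative of retrotransposon Gag genes, had the lowest adjusted p of the 24 named (1.46e-06). It stood at 184 and 153 CPM in 4+ against 2845 and 2734 CPM in 80S. The same rule picked the 12 falls, and both 4+ libraries lay below both 80S libraries in 42.5% of all genes tested. CG32436, Ppi1, CG4836, Dso1, Mtk, CG12983 and Arc1 passed whichever library was left out (adjusted p up to 0.0218). S-Lap1 missed the threshold without 4+ replicate 1 (adjusted p = 0.0895), and CG42852, Sfp96F, Dso2 and Mst57Db missed it without any library (up to 0.284).

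Across the 6 pools these genes did not share a single profile. CG32436 was high in the 80S pool alone: its mean level was 953 CPM there and 40.6 to 109 CPM in the free, 40S, 60S and 2-3 ribosome pools. Arc1 was high in the 40S and 80S pools (2314 and 2790 CPM), and dropped to 731 CPM in the 2-3 and 169 CPM in the 4+ pool. S-Lap1 was likewise at 391 CPM in 40S and 486 CPM in 80S, against 59.2 CPM in the free pool. bnb stood at 48.1 CPM in the free pool, 16.1 CPM in 80S, 89.2 CPM in the 2-3 pool and 144 CPM in 4+. These levels are descriptions, with no test across pools.

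**Figure D2:**
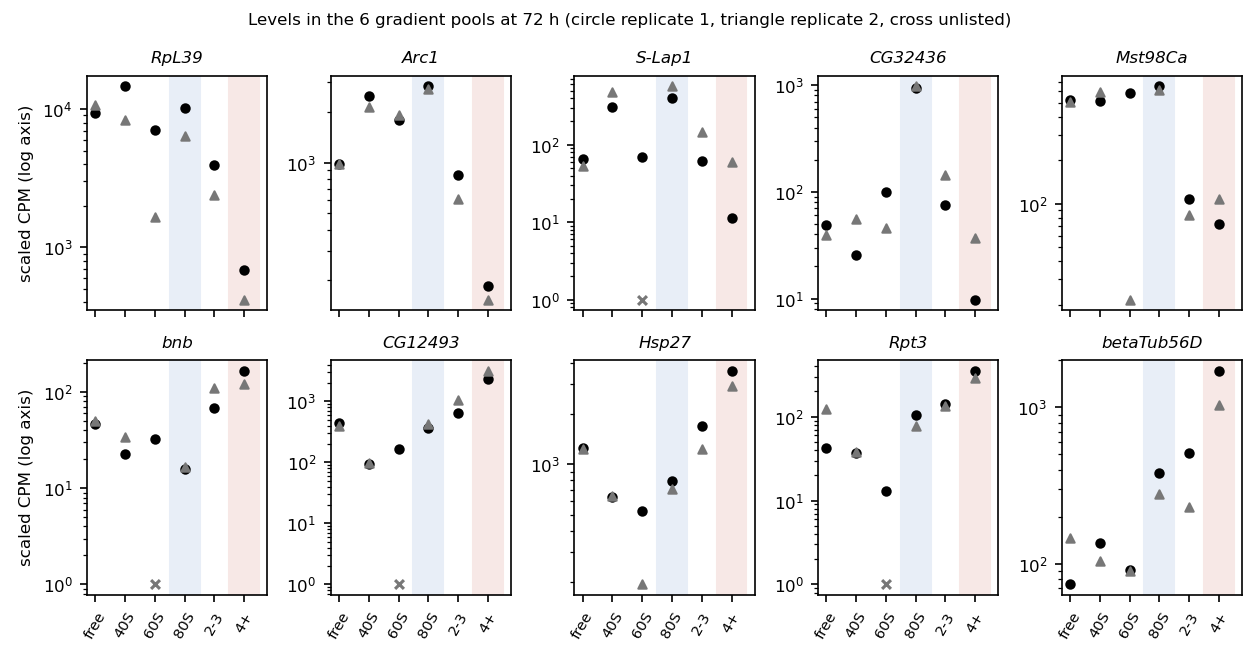
Scaled CPM (log axis, own scale in each panel) of 10 genes in the 6 gradient pools at 72 h. Circles are replicate 1, triangles replicate 2 and crosses libraries in which the gene was unlisted, drawn at 1; blue and red bands mark the 80S and 4+ pools. RpL39, Arc1, S-Lap1, CG32436 and Mst98Ca are low in 4+ (RpL39 at 682 and 417 CPM against 10220 and 6396 in 80S), and bnb, CG12493, Hsp27, Rpt3 and betaTub56D are highest there.

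Many ribosomal protein transcripts were lower in the 4+ pool. Cytoplasmic ribosomal protein genes summed to 149000 and 97800 CPM in 4+ and to 307000 and 219000 CPM in 80S. Of 80 tested, 20 fell (25.0%, against 7.51% of all genes) and none rose (41 and 2 without the shallow 60S library). Their median log2 was −0.99. Both 4+ libraries were below both 80S libraries for 49 of the 80, and for 42.5% of all genes. RpL39, among the shortest ribosomal proteins, stood at 682 and 417 CPM in 4+ against 10220 and 6396 CPM in 80S (log2 −3.92 ± 0.53, SE; adjusted p = 3.89e-05). RpL29 stood at 666 and 304 CPM against 6348 and 4400 CPM (log2 −3.55), and RpS25 at 699 and 373 CPM against 6343 and 4255 CPM (log2 −3.35). RpL3, among the longest, had 5538 and 4321 CPM in 4+ and 1941 and 1131 CPM in 80S, a log2 difference of 1.72 that did not pass (adjusted p = 0.149). Of 11 paralogues, 1 fell, RpS28a, which was unlisted in both 4+ libraries, and none rose (1 and 1 without the shallow 60S library); their median of −0.08 became 0.20 when scaled by total reads.

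Among 41 translation initiation factor genes the median was 0.55. Both 4+ libraries were above both 80S libraries for 28 of them, and for 27.8% of all genes. Called higher were 2.44% of them and called lower 2.44%, against 1.16% and 7.51% of all genes. By the test 1 rose, eIF4H1 (409 and 631 CPM against 150 and 201 CPM; log2 1.55, adjusted p = 0.0231), and 1 fell, eIF1, the short factor that guards start codon choice (68.2 and 68.8 CPM against 532 and 488 CPM; log2 −2.89, adjusted p = 0.000518). Without the shallow 60S library 11 rose and 2 fell. None of the 7 elongation factor genes passed, with a median of 0.62 (1 rose and 1 fell without the shallow 60S library). RpL39, RpL29, RpS25 and eIF1 passed whichever library was left out, and eIF4H1 and RpS28a missed the threshold whichever was left out (adjusted p up to 0.234).

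Coding length ordered the levels at the short end. Genes of 100 codons or fewer had a median log2 of −2.08 (n = 486), and 38.5% of them fell and none rose. The medians were −0.96 for 101 to 200 codons (n = 1472), 0.01 for 201 to 400 (n = 2772), 0.12 for 401 to 800 (n = 3097), −0.14 for 801 to 1600 (n = 1414) and −0.63 for over 1600 (n = 446). In this longest class 11.7% fell and none rose. Spearman's rho with coding length was 0.188 across all genes, 0.448 up to 400 codons and −0.196 above. With mean log2 CPM it was 0.215 across all genes. These are descriptions, since genes are not independent replicates. The same order ran inside the ribosome. Of 9 ribosomal protein genes of 100 codons or fewer 8 fell (median −3.36), as did 12 of 46 of 101 to 200 codons (−1.26). None of the 24 longer ones did (−0.12). The calls by length class were not counted again without the shallow 60S library and may differ there. Over all genes the falls went from 729 to 1601 without it. Median expression also differed between classes, from a mean log2 CPM of 4.58 in the shortest to 3.92 in the longest; its part in the order was not tested.

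**Figure D3:**
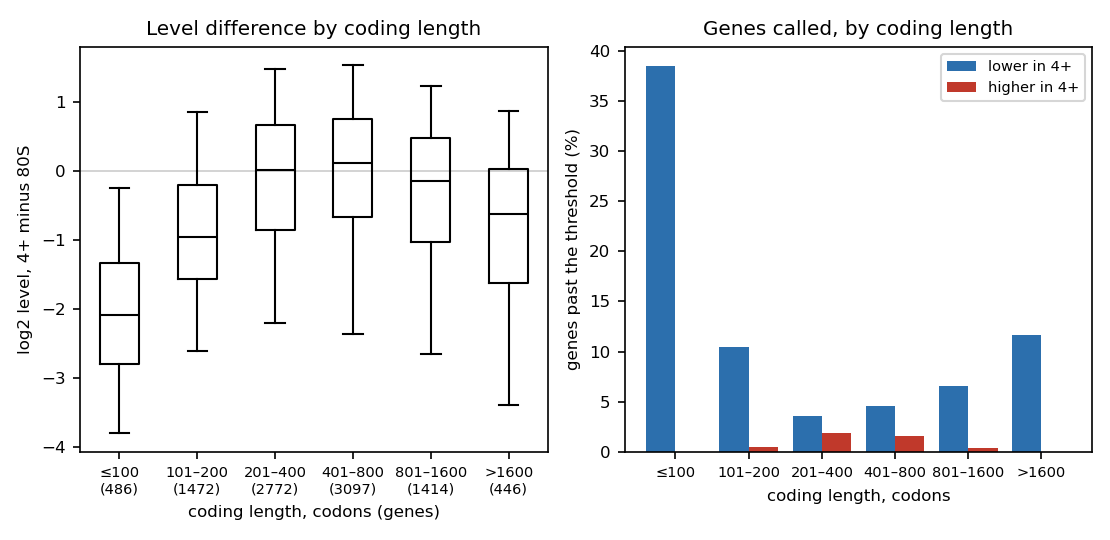
Left, log2 level in 4+ minus 80S at 72 h by coding length in codons (boxes are quartiles with the median, whiskers the 5th and 95th percentiles, number of genes in brackets). Right, percent of genes in each class called lower or higher in 4+; 38.5% of the shortest class and 11.7% of the longest were lower.

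Sperm leucyl aminopeptidase genes were low in the 4+ pool, although their coding regions are of ordinary length. The 8 sperm leucyl aminopeptidases, abundant proteins of the sperm mitochondrial derivative, summed to 314 and 749 CPM in 4+ and to 4400 and 5260 CPM in 80S. All 8 lay below in both 4+ libraries, as did 42.5% of all genes. By the test 5 fell (62.5%, against 7.51% of all genes), or 8 without the shallow 60S library. Their median log2 was −3.40 against 0.12 for all genes of their length class. loopin-1 stood at 17.5 and 48.0 CPM in 4+ and at 335 and 453 CPM in 80S (log2 −3.72, adjusted p = 0.0128). S-Lap5 stood at 8.28 and 14.6 CPM against 111 and 134 CPM (log2 −3.43, adjusted p = 0.00196). In every one of these genes 4+ replicate 2 was above replicate 1, so without replicate 1 the difference was smaller (S-Lap3: −2.13 against −2.69). The copies are close in sequence, and reads may be split between them.

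The cup and comet genes, which are transcribed after meiosis, had a median of −1.29. Of 17 tested, 5 fell (29.4%, against 7.51% of all genes) and none rose (10 and 0 without the shallow 60S library). m-cup stood at 12.02 and 17.96 CPM in 4+ against 125 and 167 CPM in 80S (log2 −3.27, adjusted p = 0.0198), and boly at 13.3 and 17.4 CPM against 58.1 and 112 CPM (log2 −2.39, adjusted p = 0.0232). r-cup, p-cup and s-cup also fell; s-cup was unlisted in both 4+ libraries and p-cup in 1. Not all members were low: wa-cup stood at 49.2 and 44.1 CPM in 4+ against 37.5 and 49.6 CPM in 80S (log2 0.11), and d-cup also overlapped between pools.

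All 7 Mst84D-type genes lay below in both 4+ libraries. They encode Cys-Gly-Pro proteins of the sperm tail and are known for late translation in spermatids. Over all genes 42.5% lay below in both, and 7.51% were called lower. The Mst84D-type median was −1.76, and 1 passed, Mst98Ca (72.3 and 108 CPM against 653 and 618 CPM, log2 −2.85, limma adjusted p = 0.036). Without the shallow 60S library 5 passed. The 8 sperm chromatin genes did the same, with a median of −1.47 and 1 call, Tpl94D, a transition protein-like gene (13.3 and 27.1 CPM against 86.2 and 65.0 CPM; log2 −1.95, adjusted p = 0.0386); 2 fell without the shallow 60S library. Of 7 dj, ocn and jan genes none passed (median −1.36; 3 fell without the shallow 60S library), and 6 lay below in both 4+ libraries, while janA overlapped (log2 0.48). Relative to genes of their own coding length, the aminopeptidases (−3.52), the cup and comet genes (−1.40), the dj, ocn and jan genes (−1.37) and the chromatin genes (−0.83) were lower in the median, while the Mst84D type (0.32) was not. Within that type, the 5 genes of 100 codons or fewer had a median of −1.75, against −2.08 for their length class. The 2 of 201 to 400 codons, Mst98Ca and Mst98Cb, stood at −2.85 and −2.92, against 0.01 for theirs.

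Genes for large proteins of the sperm tail were lower in part. Of 9 axonemal dynein and Y-linked fertility genes, 2 fell (22.2%, against 7.51% of all genes) and none rose (4 and 1 without the shallow 60S library). Their median was −1.20, or −0.57 relative to genes of their own coding length. Both falls were among the 6 members of over 1600 codons. Of all genes in that class 11.7% fell and none rose. Dhc36C stood at 5.03 and 10.7 CPM in 4+ against 38.5 and 41.6 CPM in 80S (log2 −2.40, adjusted p = 0.0227), and Dhc16F was unlisted in 1 of the 4+ libraries and at 1.82 CPM in the other, against 29.2 and 25.8 CPM. The Y-linked members kl-2, an axonemal dynein heavy chain gene, and ARY had values the other way without passing. kl-2 stood at 2.44 and 3.64 CPM in 4+ and was unlisted in both 80S libraries (adjusted p = 0.0942), and ARY stood at 6.33 and 14.2 CPM against 2.75 and 8.50 CPM. Of the sperm genes named, Dhc16F passed whichever library was left out and S-Lap5 except without 4+ replicate 1 (adjusted p = 0.0669). S-Lap3 passed only without 4+ replicate 2 and s-cup only without 4+ replicate 1. loopin-1, m-cup, boly, r-cup, p-cup, Mst98Ca, Tpl94D and Dhc36C missed the threshold in every case (up to 0.423).

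Most tubulins, the proteasome and larger mitochondrial subunits stood on the other side. Tubulin genes summed to 11100 and 8890 CPM in 4+ and to 3770 and 3930 CPM in 80S. Of 9, 2 rose (22.2%, against 1.16% of all genes) and none fell (5 and 0 without the shallow 60S library). Their median was 1.42. The most abundant, alphaTub84B, stood at 7850 and 5824 CPM in 4+ against 2203 and 2281 CPM in 80S (log2 1.59, adjusted p = 0.0287). betaTub56D stood at 1711 and 1030 CPM against 380 and 281 CPM (log2 2.02, adjusted p = 0.00553). The testis-specific betaTub85D overlapped between pools, at 856 and 1127 CPM in 4+ against 935 and 1082 CPM in 80S (log2 −0.03), and gammaTub37C was below in both 4+ libraries without passing (log2 −0.90).

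Proteasome genes stood higher in the 4+ libraries. Both 4+ libraries were above both 80S libraries for 31 of 32 core and cap genes, and for 27.8% of all genes. None of the 32 had a log2 difference below 0, and the median was 1.07. Called higher were 6.25% of them, against 1.16% of all genes. By the test 2 rose, the cap ATPases Rpt3 (353 and 288 CPM against 106 and 78.4 CPM; log2 1.81, adjusted p = 0.0126) and Rpt4 (246 and 269 CPM against 97.2 and 65.7 CPM; log2 1.68, adjusted p = 0.0408). Without the shallow 60S library 23 of the 32 rose and none fell. The 14 testis copies of proteasome genes had a median of −0.61 and no call, or 2 higher and 4 lower without the shallow 60S library. The difference between the lists was not tested.

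Respiratory chain and ATP synthase genes split by size. Of 46, 7 fell (15.2%, against 7.51% of all genes) and 1 rose (2.17%, against 1.16%). Without the shallow 60S library 16 fell and 11 rose. The falls were small subunits: COX8 stood at 283 and 209 CPM in 4+ against 3474 and 2480 CPM in 80S (log2 −3.59, adjusted p = 0.00196), and UQCR-6.4 at 109 and 73.3 CPM against 1209 and 746 CPM (log2 −3.41, adjusted p = 0.000714). The rise was blw, the alpha subunit of ATP synthase (957 and 1204 CPM against 292 and 361 CPM; log2 1.72, adjusted p = 0.029). The 8 genes of 100 codons or fewer had a median of −2.51, with 6 falls, and the 20 of over 200 codons a median of 0.94. Of 18 testis copies of mitochondrial genes, 1 rose (5.56%) and 2 fell (11.1%), or 3 and 5 without the shallow 60S library. Their median was −0.44.

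Heat shock and chaperone genes had calls both ways. Of 21, 3 rose: Hsp23, Hsp27 and Hsp60A, a mitochondrial chaperonin (14.3%, against 1.16% of all genes). The 2 falls, the testis-enriched Hsc70-1 and Hsc70-2, were 9.52%, near the 7.51% of all genes. Without the shallow 60S library 5 rose and 4 fell. Hsp60A stood at 417 and 453 CPM in 4+ against 140 and 110.1 CPM in 80S (log2 1.81, adjusted p = 0.0349). Hsc70-2 stood at 11.5 and 39.5 CPM against 256 and 284 CPM (log2 −3.61, adjusted p = 0.0105). All animals had been shocked 72 h earlier, so a part of the shock in these levels cannot be told apart. Of the calls named in the last 4 paragraphs, UQCR-6.4 passed whichever library was left out, and COX8 did except without 80S replicate 1 (adjusted p = 0.0522). betaTub56D missed the threshold without 4+ replicate 1 or 80S replicate 2 (up to 0.121). Hsc70-1 and Hsc70-2 missed it without 3 of the 4 libraries and alphaTub84B, Rpt3, Rpt4, blw and Hsp60A without any of them (up to 0.355).

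The lists of germ line regulators held few calls. Over all genes 8.68% were called, 1.16% higher and 7.51% lower. None of the 11 tMAC and testis TAF genes passed (median 0.10; 2 rose without the shallow 60S library). Of 15 spermatocyte and meiotic regulators, 1 fell, Nxt1, an mRNA export cofactor with a short coding region (65.4 and 48.5 CPM in 4+ against 548 and 389 CPM in 80S; log2 −3.03, adjusted p = 0.00204), and none rose (2 fell and 2 rose without the shallow 60S library). Of 25 translational repressor and mRNP genes, 2 rose (8.0%) and 1 fell (4.0%), or 5 and 6 without the shallow 60S library. Their median was 0.43. The RNA-binding protein gene shep stood at 428 and 469 CPM against 126 and 178 CPM (log2 1.58, adjusted p = 0.0188). Gld2, a cytoplasmic poly(A) polymerase, stood at 76.5 and 129 CPM against 313 and 494 CPM (log2 −1.99, adjusted p = 0.00654). Of 16 cleavage and polyadenylation factors, with a median of 0.24, none passed (2 rose and 1 fell without the shallow 60S library). Of 12 early germ cell genes 1 rose (8.33%, median 0.66). The same gene is 1 of the 2 rises among the translational repressors, so it is counted in both lists. Nxt1 missed the threshold without 4+ replicate 2 or 80S replicate 1, Gld2 without 4+ replicate 1 or 80S replicate 2, and shep whichever library was left out (adjusted p up to 0.153).

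Markers of other tissues were also measured. Of 9 accessory gland genes tested (14 have a name in the data) 3 fell (33.3%, against 7.51% of all genes) and none rose. The sum of the 9 was 76.0 and 176 CPM in 4+ against 340 and 939 CPM in 80S, different between replicates in both pools. Acp98AB stood at 2.44 and 8.98 CPM against 90.7 and 219 CPM (log2 −4.86, adjusted p = 0.00744), and missed the threshold without 4+ replicate 1 or 80S replicate 2. All 3 falls were among the 5 members of 100 codons or fewer, and relative to genes of their own coding length the list had a median of −0.10. Of the longer members, Acp26Aa stood at 14.1 and 30.1 CPM in 4+ against 7.39 and 13.0 CPM in 80S (log2 1.09, adjusted p = 0.549), and Acp36DE overlapped between pools (log2 0.61). Of 15 muscle genes 1 rose, Tm1 (6.67%, against 1.16% of all genes), and 2 fell, Mlc2 and Mlp60A (13.3%, against 7.51%). Mlc2 stood at 18.5 and 11.5 CPM against 150 and 116 CPM, and Mlp60A at 6.82 and 5.46 CPM against 52.4 and 56.4 CPM. Neither fall was past the threshold once any library was left out. The muscle median of −0.26, beside −0.23 for all genes, became 0.02 when scaled by total reads (0.05 for all genes). None of 11 cyst cell markers (sums 202 and 263 against 277 and 320 CPM) or of 8 fat body and haemocyte markers tested of 12 (978 and 1170 against 767 and 812 CPM) passed; 1 of the 8 rose without the shallow 60S library. The seminal gene Mst57Db, among the largest falls, stood at 477 and 1292 CPM in 80S and so differed between replicates as the accessory gland sum did. Of the immune peptide genes, Dso1 (2626 and 2491 CPM) and Mtk (190 and 210.3 CPM) differed little between the 80S replicates, while Dso2 differed more (4365 and 6669 CPM). The part of accessory gland RNA in the falls was not tested.

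Replication-dependent histone genes, which end mostly without a poly(A) tail, were listed at low to moderate levels. The 20 tested His2A copies summed to 37.5 and 31.9 CPM in 4+ and to 366 and 311 CPM in 80S, with 19 called lower and a median of −3.39. The 23 His2B copies summed to 446 and 376 CPM against 857 and 765 CPM, with none called lower and a median of −0.96. Among all genes of 101 to 200 codons the median was also −0.96, and 10.5% were called lower. The histone copies were not set against their own length classes. His1 (median −0.07) and His4 (−1.52) had 1 tested copy each, neither called. These copies are near-identical and reads may be split among them, so calls of copies are not separate results. The difference between families was not tested, and the genes were picked after their values were seen.

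The differences between the pools at 72 h were set against the same comparison at 24 and 48 h, which used other libraries. At 24 h 511 of 7822 genes passed (6.53%) and at 48 h 316 of 8701 (3.63%). Arc1 stood lower in 4+ at all times, with log2 differences of −3.59, −4.51 and −4.05 at 24, 48 and 72 h, and so did RpL39 (−3.12, −3.72 and −3.92), Dso1 (−3.55, −4.62 and −4.48), eIF1 (−2.93, −2.57 and −2.89) and COX8 (−3.02, −3.42 and −3.59). Each of these 5 passed the test at each time. Others were near 0 earlier: betaTub56D had log2 differences of 0.23, 0.59 and 2.02, Tm1 of 0.37, 0.53 and 2.17, and shep of −0.49, −0.26 and 1.58. S-Lap1 was not tested at 24 h and stood at −0.998 at 48 h and −4.16 at 72 h. By the test of the difference itself, none of 8367 genes changed between 48 and 72 h (371 at an unadjusted p under 0.05; limma, and 0 with limma-trend). Between 24 and 72 h 8 of 7449 did (0.107%), all lower at 72 h. betaTub56D, Tm1 and shep were not among them (adjusted p of 0.444, 0.457 and 0.274).

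The 3′ ends of the pools also differed. Of 10704 genes with reads, 6390 had 2 or more sites, and the main pair could be tested in 3803. At 72 h 51 pairs passed (1.34%; limma, adjusted p under 0.05). Sites of a library closer than 50 nt had been merged before deposit, which can remove 1 of 2 close sites from a library, so pairs over 100 nt apart are described. Of 3087 such pairs, 38 (1.23%) shifted toward the distal end in 4+ and 8 (0.259%) toward the proximal end. The median log2 of proximal over distal reads, 4+ minus 80S, was −0.36. Both 4+ libraries were more distal than both 80S libraries in 1086 pairs (35.2%) and more proximal in 473. The distal calls fell on widely spaced pairs: 4 of 1336 pairs 101 to 250 nt apart, 12 of 1075 pairs 251 to 600 nt apart, 15 of 406 pairs 601 to 1200 nt apart and 7 of 270 wider ones. All 46 calls held without the shallow 60S library. In 27 of the 38 distal calls both sites were listed in all 4 libraries, and elsewhere an unlisted site entered at 5 reads. Shares are of the pair, which held 46.1% (osa) to 100% (PyK) of the reads of its stop codon. Without any 1 of the 4 libraries 4 to 17 pairs passed in all, and of the 46 only orb and Not1 passed each time.

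Of these genes orb encodes a CPEB-family protein that binds mRNA 3′ UTRs and controls their poly(A) tails and translation in the germ line. Its sites lie 199 and 1206 nt after the stop codon, at positions 23265654 and 23264647 of the minus strand of chromosome 3R (dm6). Distances from a stop codon are along the genome, and introns within them were not checked. The distal site took 80.3% (191 of the pair's reads, with 47 proximal) and 70.1% (379 and 162) of the pair in the 4+ libraries. In the 80S libraries it took 7.84% (52 and 611) and 9.15% (82 and 814). The pools lay far apart, and the log2 of proximal over distal differed by −4.999 ± 0.73 (SE; adjusted p = 0.000884). The short form was at 7.63 and 18.4 CPM in 4+ against 105 and 141 CPM in 80S, and the long form at 31.0 and 43.1 CPM against 8.93 and 14.2 CPM. The pair held 98.6% of the reads of this stop codon.

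Not1, the scaffold of the CCR4-NOT deadenylase, was 85.0% and 85.1% distal in 4+ and 8.09% and 18.8% in 80S (log2 −5.29, adjusted p = 0.000884). Its proximal site lies 183 nt before the annotated stop codon and its distal site 469 nt after it (positions 9568161 and 9567509 of chromosome 2R, minus strand). Whether the proximal site lies in an exon was not checked. In this gene the 80S pool stood apart: the free, 40S and 2-3 pools were 64.9% to 95.3% distal. This was not particular to Not1. CG34120 was 100% distal in the free and 2-3 pools, against 36.8% and 67.6% in 80S, and osa is given below. twin, the Ccr4 deadenylase of the same complex, was 76.4% and 49.0% distal in 4+ and 10.1% and 12.3% in 80S.

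The 6 other largest distal shifts were in PDZ-GEF, osa, SdhA, ATP7, Ald1 and Mcr. The chromatin remodelling subunit osa had all reads of its pair at the distal end in both 4+ libraries (79 and 214 reads) and 12.2% and 32.9% in 80S. Its pair held only 46.1% of the reads of this stop codon. Other pools were also mostly distal in osa: 100% in both 2-3 libraries, 96.0% and 100% in 40S, and 86.5% and 81.6% in the free pool. SdhA, a succinate dehydrogenase subunit, had 32.1% and 41.2% at the distal end in 4+, where neither 80S library listed that site beside 460 and 533 proximal reads. Mcr, a complement-related protein, was 100% and 91.5% distal in 4+ and 24.9% and 32.8% in 80S (sites 152 and 843 nt after the stop codon). The copper transporter gene ATP7 was 73.9% and 44.5% distal against 4.99% and 0%. PDZ-GEF rests on few reads, 38 and 44 at the pair in 4+, and its pair held 53.2% of the reads of its stop codon. Ald1 lies in a group of transcripts with 3 annotated stop codons, so its sites may follow different ones.

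Some of the other distal calls are given as examples, chosen after their values were seen. shg (E-cadherin) was 82.8% and 72.8% distal in 4+ and 24.5% and 32.2% in 80S (adjusted p = 0.0128). Dg (dystroglycan) was 90.5% and 90.8% against 51.2% and 53.0%, and Csk, a Src-inhibiting kinase, 64.9% and 71.1% against 19.1% and 15.6%. The TSC22-family gene bun was 93.4% and 84.7% distal against 37.8% and 40.4% (adjusted p = 0.00759), and sra, a calcineurin regulator, 79.8% and 75.6% against 25.8% and 32.3% (adjusted p = 0.00759). bel, a DDX3-type helicase, was 85.3% and 88.2% distal against 39.6% and 51.6%. The pairs of bun and bel held 47.4% and 54.7% of the reads of their stop codons. m-cup, low in the 4+ pool as a whole, was 63.5% and 43.7% distal there and 8.91% and 5.21% in 80S. None of these overlapped between pools, but nor did any of the 46 calls.

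**Figure D4:**
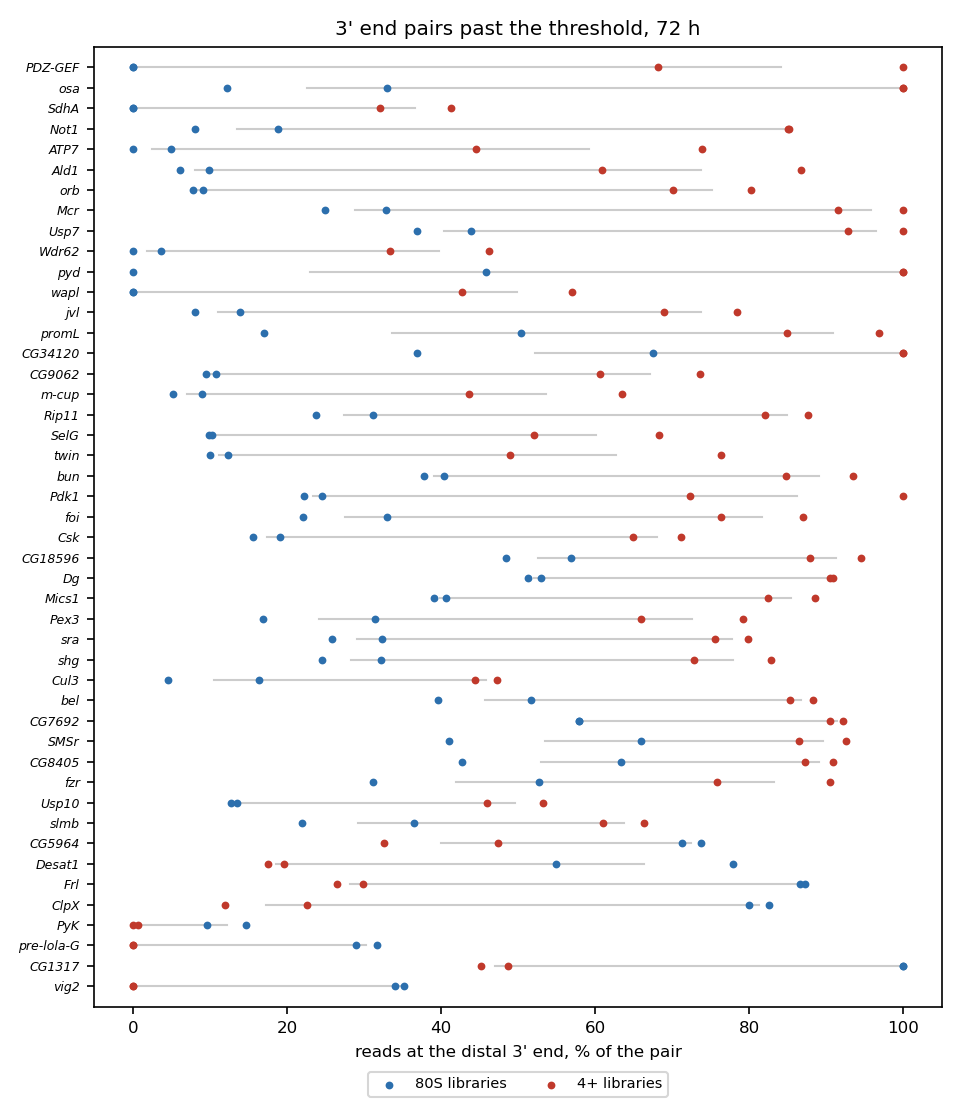
Reads at the distal 3′ end as percent of the pair (x axis) for the 46 pairs over 100 nt apart that passed the test, ordered by shift. Red points are the 4+ libraries, blue points the 80S libraries and grey lines join the means. The upper 38 pairs are more distal in 4+ (orb 80.3% and 70.1% against 7.84% and 9.15%), and the lower 8 more proximal.

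In most of these pairs both forms moved. The proximal form was lower in both 4+ libraries in 36 of the 38 distal calls and the distal form higher in both in 32, with both in 30. As the pairs were picked for the ratio, these counts are descriptions. By gene level, 5 of the 38 genes were called lower in 4+ and none higher (7.51% and 1.16% of all genes). The median log2 of the 38 was −0.40, beside −0.23 for all genes. Across the other pools of 72 h the distal share of orb was intermediate in the 2-3 pool (47.0% and 27.8%) and low in 40S (6.54% and 6.80%). sra stood at 62.5% and 37.0% in the 2-3 pool and at 2.87% and 2.64% in 40S. shg and bel were mostly distal in the free pool too (83.5% and 83.6%, and 89.5% and 90.9%).

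**Figure D5:**
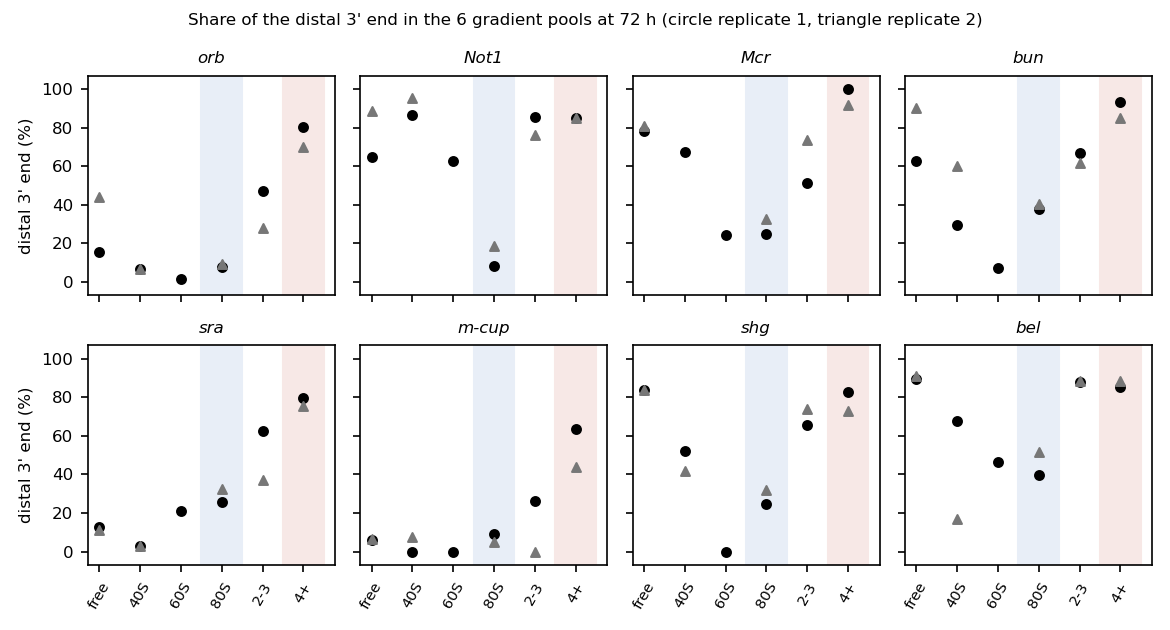
Distal share of the pair (y axis, percent) in the 6 gradient pools at 72 h for 8 genes; circles are replicate 1, triangles replicate 2, bands mark 80S (blue) and 4+ (red), and libraries with under 30 reads at the pair are left out. orb, sra and m-cup are most distal in 4+ (sra 79.8% and 75.6%), while Not1 is mostly distal in the pools other than 80S.

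At the earlier times several of these pairs were distal in both pools. orb was 100% and 94.1% distal in 4+ at 24 h and 100% in both 80S libraries; at 48 h it was 90.2% and 72.4% in 4+ against 25.7% and 55.4% in 80S. shg and bun were 95.2% to 100% distal in all 4 libraries of 24 h. Of the 38 distal calls of 72 h, 33 had enough reads at 24 h, and both 4+ libraries were more distal in 5 and more proximal in 1. At 48 h 35 had enough reads, and 14 were more distal and 3 more proximal. The shares over all pairs were not counted at 24 and 48 h, so these counts have no background beside them. At 72 h both 4+ libraries were more distal in 35.2% of all pairs over 100 nt apart. A pair at 100% distal in the 80S libraries could not be more distal in 4+. The difference between times in site use was not tested, and the pairs were chosen at 72 h.

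Of the 8 shifts toward the proximal end, 5 were between sites at most 250 nt apart. In vig2 (106 nt apart) and pre-lola-G (101 nt) the distal site was unlisted in both 4+ libraries, and in CG1317 (104 nt) the proximal site in both 80S libraries. Desat1, a fatty acid desaturase gene, was 17.5% and 19.7% distal in 4+ against 54.8% and 77.9% in 80S (104 nt). Frl, a formin, was 26.5% and 29.8% distal against 87.2% and 86.5% (139 nt). The wider pairs were PyK, CG5964 and ClpX. PyK (pyruvate kinase) was 0% and 0.714% distal in 4+ against 14.7% and 9.61% in 80S (263 nt; log2 4.51, adjusted p = 0.00387). CG5964 was 47.4% and 32.5% against 71.2% and 73.7% (491 nt). ClpX, a mitochondrial protease subunit, was 11.9% and 22.6% against 82.6% and 80.0%, in a group of transcripts with 2 annotated stop codons (1485 nt). As with all 46 calls, none of the 8 overlapped between pools. PyK and ClpX missed the threshold without either 4+ library, the other 6 without 3 or 4 of the libraries.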

How the data were processed

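The files hold read counts of 3′ ends per stop codon, each position joined to its count by the authors in 1 text column, a form that is neither a plain count table nor a ratio (unit: other, as deposited). Per the submitters' processing notes the aligner was Bowtie 0.12.8 and the genome build dm6. The lowest deposited count is 10 reads, and an unlisted gene or site entered the tests at 5. Pairs were unpacked in Python 3.11.15, counts of a gene summed, and log2 levels tested with limma 3.58.1 (voom, robust) in R 4.3.3 over all 36 fraction libraries, with trimmed-mean scaling. Genes listed in both libraries of a compared group were tested. Lysate files were not used. Sites at most 50 nt apart in different libraries counted as 1. log2(proximal/distal) was tested with read weights in libraries with at least 30 reads at the pair. Each site had to hold a mean of at least 5% of the pair in either pool, so a site could be absent from the other pool. The Benjamini-Hochberg threshold was 0.05. Coding lengths and stop codons came from the Ensembl annotation in dm6 coordinates (11974 of 11997 genes). The coding length of a gene is that of its longest annotated coding region, which may differ from that of the mRNA counted. Keys of minus-strand stop codon entries lie at the start codon, so 549 such entries pool 2 or more stop codons. Scripts were tested on simulated data. Alternatives are given at the end.

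Named genes were the 12 largest rises and falls past the threshold, listed in all 4 libraries without overlap and with mean log2 CPM of at least 5, the 8 largest site shifts each way over 100 nt apart, and members of lists that passed or lay at their extremes. The comparison and its 25 lists were chosen with earlier results of these data known. Some genes are not reported here.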

Additional observations from a re-analysis of the deposited data

Results flagged for a closer look

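Apl was the gene past the threshold, and listed in all 8 libraries, whose difference between the 4+ and 80S pools was not the same at 72 h and at 24 h. At 72 h it stood at 21.8 and 28.2 CPM in 4+ and at 74.9 and 76.3 CPM in 80S. At 24 h it stood at 58.9 and 39.3 CPM in 4+ and at 17.5 and 10.9 CPM in 80S, so the order of the pools was turned and neither time overlapped. The log2 difference of the differences was −3.50 ± 0.63 (SE; adjusted p = 0.0158, limma, tested as an interaction over 7449 genes). It missed the threshold in limma-trend (adjusted p = 0.0849), without 4+ replicate 1 (0.144) or 2 (0.0647) or 80S replicate 2 (0.0997) of 72 h, and without 4+ replicate 1 (0.0883) or either 80S library (0.109 and 0.113) of 24 h. Its near copy Arts, which can share reads, stood at 10.2 and 9.21 CPM in 4+ and at 23.9 and 20.5 CPM in 80S at 72 h (log2 −1.19, adjusted p = 0.236).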

How the results depend on the processing

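The directions of the called genes and site pairs named here held under the alternatives run. The count of 842 genes was 524 over genes listed in all 4 libraries, 3589 with the 4 libraries alone, 2720 without the 60S pools, 2339 without the shallow 60S library and 2873 with 8 libraries of 72 h, the last pair chosen after seeing the data. With the 12 libraries of 72 h, limma called 0 (1052 at an unadjusted p under 0.05, against 2354). Leaving out 1 library gave 154 to 264. The site count of 51 was 80 with unlisted sites at 9 reads, 106 with the 4 libraries alone, 11 with the 12 of 72 h, 23 with no weights, and 4 to 17 without 1 library. Between 48 and 72 h, 0 genes became 3 with total scaling, 2 with unlisted genes at 9 reads, 99 with the compared libraries alone, 19 without the 60S pools and 0 to 1 without 1 library. Between 24 and 72 h, 8 became 18 with total scaling, 14 by median ratios, 25 with genes listed in any group, 3 in all 4, 5 and 15 with unlisted genes at 1 and 9 reads, 190 with the compared libraries alone, 275 without the 60S pools, 1 in limma-trend and 0 to 28 without 1 library. The causes were not tested, beyond fewer samples or genes where these were left out. Genes under 10 reads at every site cannot be told from absent ones.

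With a replicate block the counts were 907 genes, 49 site pairs, 0 between 48 and 72 h and 10 between 24 and 72 h. The labels share only replicate numbers between the pools; deviations of same-numbered libraries correlated at r = 0.213, which with 2 pairs does not establish a pairing.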
